A study of Mus musculus with 9 samples.

Results

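The comparison described here set liver miRNAs of mice given metformin against those of mice given saline while both groups ate the same high fat diet. It used 6 of the 9 arrays of the series, namely the 3 titled Metformin and the 3 titled High fat diet, and no measured value entered that choice. Of 1881 mouse miRNAs on the array, 143 gave enough signal to be tested. In these livers, miR-202-3p and miR-7050-5p were higher with metformin and passed the test, at 1.47-fold and 1.39-fold. The greatest distances in the other direction were those of miR-451a, 2.02-fold lower, and miR-34a-5p, 1.48-fold lower, and neither passed.

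All mice were male and of C57BL/6J, an inbred wild-type laboratory strain, and their livers were taken at 20 weeks of age. From 3 weeks of age and for 17 weeks, the control group ate chow and both other groups a diet in which fat gave 45% of the energy. At 15 weeks of age, once 12 weeks on that diet had passed, dosing by stomach tube began and went on for 5 weeks, with saline in the group labelled high fat diet and metformin in the other, at 3 mg per kg per day as the labels give the dose. Each array measured a pool of livers of 4 mice, so 12 mice stand behind each group, and arrays of a group differ as pools do, not as single animals. Bulk liver tissue, 15 mg by the labels, was measured and not separate cell types. For every difference below, fewer cells of a type and less RNA per cell therefore cannot be told apart.

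A miRNA is a short RNA that guides the silencing complex to messenger RNAs, mainly through its seed, the bases from position 2 to position 8, and thereby lowers the output of those messages. Metformin is a drug given for type 2 diabetes. It lowers glucose output by the liver, inhibits complex I of the mitochondrial respiratory chain and activates AMPK, a kinase that senses low cellular energy. In the liver, miR-122-5p marks hepatocytes, miR-34a-5p is induced by p53 and represses Sirt1, and miR-451a is carried above all by red blood cells and represses Cab39, a partner of the AMPK-activating kinase LKB1.

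The mature sequences of the miRNAs that the results turn on are given here 5′ to 3′, with the seed in capitals, from RefSeq on the GRCm38.p6 build. They were matched by name, as was possible for 125 of the 143 tested miRNAs. The first pair passed the test, and the others had saline and metformin arrays that did not overlap; miR-101a-3p, let-7b-5p and let-7e-5p are shown for comparison with miR-101c and miR-202-3p.
miR-202-3p: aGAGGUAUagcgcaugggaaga
miR-7050-5p: aCAGGAGAagggggugagaga
miR-1904: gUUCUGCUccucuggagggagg
miR-3473g: cAAAAGUGaggcuggggaga
miR-6965-5p: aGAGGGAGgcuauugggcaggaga
miR-34a-5p: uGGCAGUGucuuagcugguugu
miR-451a: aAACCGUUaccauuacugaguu
miR-101c: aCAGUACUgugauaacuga
miR-101a-3p: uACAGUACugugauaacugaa
miR-27a-3p: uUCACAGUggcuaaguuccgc
let-7b-5p: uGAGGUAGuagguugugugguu
let-7e-5p: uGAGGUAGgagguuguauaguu

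Both miRNAs that passed are encoded on chromosome 7, on the minus strand and far apart. The mature miR-202-3p lies at chr7:139957695-139957716, inside the bounds of the long noncoding RNA gene Gm16201 and within 5000 bases of Mir7686. From that neighbour, miR-7686-5p was tested too. Its log2 difference, metformin minus saline, was -0.01, with arrays that overlapped. The mature miR-7050-5p lies at chr7:31040292-31040312, inside the bounds of the protein-coding gene Fxyd5 and the noncoding gene Gm38984. The mature miR-34a-5p lies at chr4:150068473-150068494 on the plus strand, in no other gene of the RefSeq table. The mature miR-451a lies at chr11:78073186-78073207 on the plus strand, in a locus that also holds Mir144. The mature miR-1904 lies inside the bounds of Pde4d, a phosphodiesterase gene, on chromosome 13, and that of miR-3473g inside those of Sppl2a on chromosome 2. Whether any of these positions is exonic or intronic is not given here, because the gene table holds no exons.

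Several arrays had strips of columns at an edge where some or all spots of bright probes lost signal. Each probe was therefore read as the median intensity over its spots outside the strips. The strips took 53.6%, 0% and 33.6% of the spots of saline arrays 1, 2 and 3, and 0%, 31.1% and 0% of those of metformin arrays 1, 2 and 3 (exact permutation test, two-sided p = 0.4, where 3 arrays against 3 allow no p below 0.1). The intensity that served for scaling, the 75th percentile, was 221 to 323 on the saline arrays and 231 to 252 on the metformin arrays (exact p = 0.4). Of the 143 tested miRNAs, 133 to 142 were detected on a saline array and 142 or 143 on a metformin array. These counts follow in part from the rule for testing. It was met on all metformin but not all saline arrays by 9 miRNAs, and the other way by 1. Over all probes kept, 215 to 268 were detected on a saline array and 230 to 240 on a metformin array (exact p = 0.9). All 6 arrays share a slide and a scan, but the 3 saline arrays and metformin array 1 lie in row 1 of the slide, and metformin arrays 2 and 3 in row 2.

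Saline array 3 stood apart in several respects. Its scaling intensity, 323, and its count of detected probes, 268, were the highest of the series. The muscle miRNA miR-133b-3p had an intensity of 499.5 on saline array 3, against 0.183 and 19.5 on saline arrays 1 and 2 and -0.326 to 21.1 on the metformin arrays. miR-133a-3p read 300.0 there and at most 13.4 on the other arrays of the comparison, and miR-1a-3p read 239 against at most 10.1. miR-206-3p read 34.7 against at most 3.51. No other untested miRNA exceeded an intensity of 50 on any array. The part of this pool's muscle signal in any result was not tested, and leading values without that array are given beside them. Outside that pool, miR-133b-3p was detected on saline array 2 and metformin array 1, and miR-133a-3p on metformin array 1. The hepatocyte marker miR-122-5p was detected on all 6 arrays.

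Across the 143 tested miRNAs, metformin and saline livers differed little. The difference, metformin minus saline on the log2 scale, had a median of -0.06, with the middle 50% of miRNAs between -0.13 and 0.07, and ran from -1.01 to 0.56. It was beyond 0.5 in size for 3 miRNAs. The 95% confidence interval lay within ±0.5 for 110 miRNAs and within ±1 for 141. Differences were positive for 53 miRNAs (37.1%) and negative for 90 (62.9%). The median standard error was 0.12.

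The correlation of log2 levels across miRNAs was 0.993 to 0.997 between saline arrays, 0.996 to 0.998 between metformin arrays and 0.993 to 0.995 between the groups, over the same 143 miRNAs, which are not independent replicates. With limma's moderated test and Benjamini-Hochberg adjustment over all 143, 2 miRNAs (1.4%) passed an adjusted p of 0.05, both higher with metformin, and none was lower. At an unadjusted p under 0.05 there were 13, or 9.09%. Metformin and saline arrays did not overlap for 29 miRNAs (20.3%), with the metformin arrays all above for 12 (8.39%) and all below for 17 (11.9%). Of the 12 above, 10 were detected on all 6 arrays; the other 2, miR-149-3p among them, were detected on 1 saline array and all 3 metformin arrays, so they were tested through the group where they were higher. In unscaled intensity, 13 of those 29 kept the gap, 2 of the 12 above and 11 of the 17 below.

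**Figure D1:**
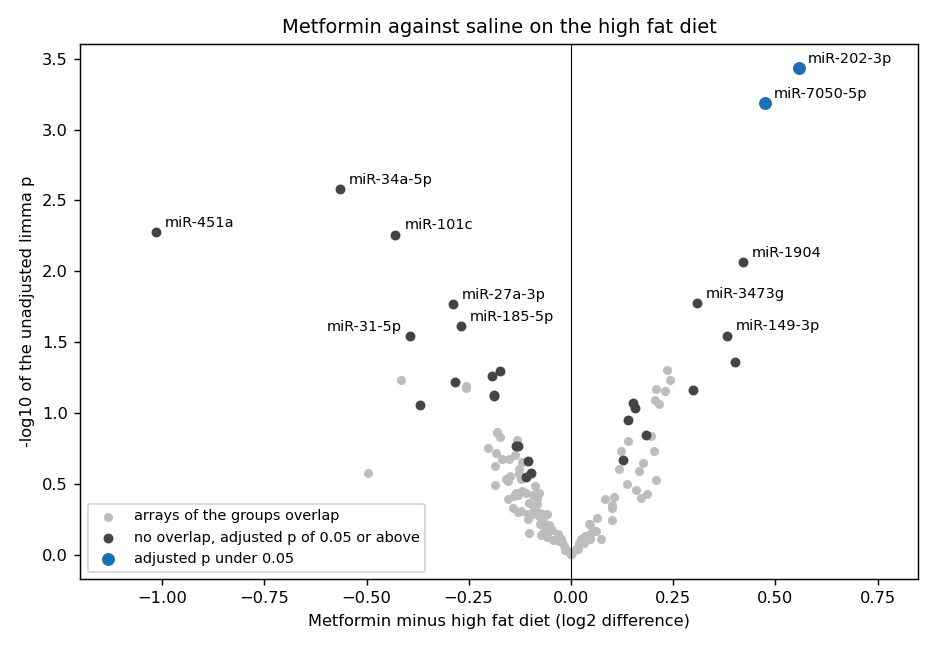
Each point is 1 of the 143 tested miRNAs, by its metformin minus saline difference (horizontal axis, log2) and by the negative log10 of limma's unadjusted p (vertical axis). Blue points passed an adjusted p of 0.05, dark points had arrays that did not overlap between the groups without passing, and grey points overlapped; miR-202-3p and miR-7050-5p stand at the upper right and miR-451a at the far left.

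miR-202-3p, known mainly from the gonads, had the highest positive difference. Its log2 level, where 0 is the array's 75th percentile, was -3.27, -3.50 and -3.58 on the saline arrays and -2.94, -2.92 and -2.82 on the metformin arrays. In unscaled intensity these were 22.9, 24.6 and 27.0 against 32.9, 30.4 and 33.5. On both scales every metformin array lay above every saline array. The group means were -3.45 ± 0.16 (SD, n = 3) and -2.89 ± 0.06 (SD, n = 3), a difference of 0.56 (SE 0.11, 95% interval 0.32 to 0.80, limma adjusted p = 0.0465).

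A separate probe for miR-202-3p gave a difference of 0.46. Metformin array 1 alone, which shares the slide row of the saline arrays, gave 0.52 over their mean. A fit with the row as a block, on the 8 arrays of that slide and so without chow array 3, gave the same 0.52 (limma adjusted p = 0.361). The difference in that fit rests on metformin array 1 alone, so it is no second check. Over all alternatives limma's adjusted p ranged from 0.00763 to 0.967. Without saline array 3, the one with muscle miRNAs, the difference was 0.49 and did not pass (limma adjusted p = 0.0806). Chow livers stood at -2.89, -2.77 and -2.62, so that the metformin arrays lay close to the chow arrays. The saline group differed from chow by -0.69 (limma adjusted p = 0.00458) and the metformin group by -0.13 (limma adjusted p = 0.496). These contrasts share arrays with the main one and add no independent evidence to it.

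miR-7050-5p was the other miRNA that passed. Its log2 levels were -3.71, -3.87 and -4.06 with saline and -3.45, -3.36 and -3.39 with metformin, or 16.9, 19.1 and 19.4 against 23.0, 22.5 and 22.6 in unscaled intensity. The groups did not overlap on either scale, and the metformin arrays differed among themselves less than the saline arrays did. Means were -3.88 ± 0.18 and -3.40 ± 0.05 (SD, n = 3 each), and the difference was 0.47 (SE 0.10, 95% interval 0.26 to 0.69, limma adjusted p = 0.0465).

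The separate probe for miR-7050-5p gave 0.45, and metformin array 1 over the saline mean gave 0.42. The difference was 0.38 without saline array 3 (limma adjusted p = 0.0806). With the slide row as a block it was again the 0.42 of metformin array 1 (limma adjusted p = 0.412, between 0.0125 and 0.967 over all alternatives). Chow arrays were at -3.60, -3.55 and -3.58, between both other groups. The saline group differed from them by -0.30 (limma adjusted p = 0.0624) and the metformin group by 0.18 (limma adjusted p = 0.302). Both passing miRNAs gave low intensity on every array.

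Among the miRNAs that did not pass, miR-34a-5p was one that the diet had raised. It stood at -1.84, -1.91 and -2.02 in chow livers, at -0.27, -0.48 and -0.91 with saline on the high fat diet, and at -1.08, -1.10 and -1.17 with metformin. The metformin arrays lay below every saline array and above every chow array. Unscaled intensity was 184, 200.1 and 172 with saline and 119, 107 and 106 with metformin. The metformin minus saline difference was -0.56 (SE 0.14, 95% interval -0.88 to -0.25), which limma did not call (adjusted p = 0.126).

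The saline arrays of miR-34a-5p spread more than the metformin arrays, with SDs of 0.33 and 0.04, and saline array 1 rested on 4 spots. The other probe of miR-34a-5p gave -0.65 and metformin array 1 alone -0.53. Without saline array 3 the difference was -0.74 and passed (limma adjusted p = 0.00657; range over alternatives 0.00657 to 0.967). Against chow, miR-34a-5p was 1.37 higher with saline (limma adjusted p = 0.000265) and 0.80 higher with metformin (limma adjusted p = 0.0143), both on the log2 scale and both passing.

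miR-451a, the red cell miRNA, had the lowest difference of all. Its levels were -0.91, -0.53 and -0.99 with saline and -1.72, -1.94 and -1.80 with metformin, with no overlap, and 118, 194 and 163 against 76.1, 60.1 and 67.9 in unscaled intensity. The difference was -1.01 (SE 0.29, 95% interval -1.66 to -0.37, limma adjusted p = 0.158). Chow arrays ranged widely, at -1.57, -0.13 and -1.07, and their SD of 0.73 enters the shared spread of the fit, beside 0.25 with saline and 0.11 with metformin.

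When the 6 compared arrays were fitted without chow, miR-451a passed with the same difference (limma adjusted p = 0.000251; range over alternatives 0.000251 to 0.967), as it did without chow array 1 (0.0333) or without chow array 2 (0.0134). Without saline array 3, the one with muscle miRNAs, the difference was -1.10 and did not pass (limma adjusted p = 0.181). Nor did miR-451a pass without any other single saline or metformin array (limma adjusted p from 0.297 to 0.644). Its other probe gave -1.10 and metformin array 1 alone -0.92. Of the other red cell miRNAs on the array, miR-144-3p and miR-144-5p, from the same locus, were detected on 0 of the 6 arrays and miR-486a-5p on 1, saline array 3. The erythroid list therefore rests on miR-451a alone, at 0.504 to 0.695 of the 75th percentile with saline and 0.260 to 0.303 with metformin; the part of blood content in this difference was not tested.

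**Figure D2:**
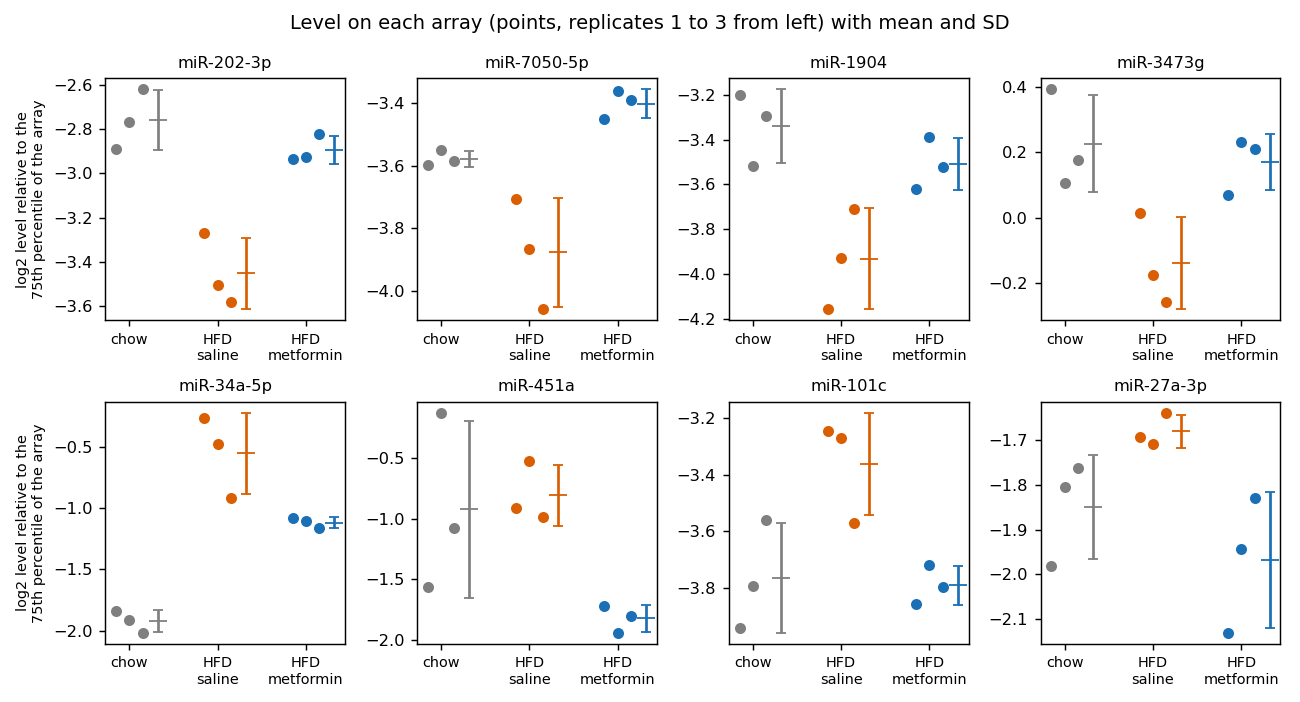
Log2 level relative to the array's 75th percentile for 8 miRNAs on each of the 3 chow, 3 saline and 3 metformin arrays (points), with the group mean and SD beside them. Metformin arrays lie above all saline arrays in the upper row and below them in the lower row; chow arrays of miR-451a spread from -1.57 to -0.13, and vertical scales differ between panels.

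Beyond these, the 10 highest and the 10 lowest of the miRNAs detected on all 6 arrays whose groups did not overlap were named. None of the remaining 16 was called by limma. Above were miR-1904 (difference 0.42, SE 0.13), miR-6965-5p (0.40, SE 0.18), miR-3473g (0.31, SE 0.11), miR-5126 (0.18), miR-92a-3p (0.16), miR-20a-5p (0.15), let-7b-5p (0.14) and miR-345-5p (0.13). miR-92a-3p and miR-20a-5p come from the miR-17-92 cluster, but that cluster and the related miR-106b-25 cluster had 3 positive and 4 negative among 7 tested members, with a median of -0.12. Below were miR-101c (-0.43, SE 0.12), miR-31-5p (-0.39), miR-193a-3p (-0.37), miR-27a-3p (-0.29, SE 0.10), miR-146a-5p (-0.28), miR-185-5p (-0.27), miR-125b-5p (-0.19) and let-7e-5p (-0.19). For the 13 of all 20 that had another usable probe, that probe gave the same sign 13 times, against 69 of 78 over all tested miRNAs with another probe. The 20 were chosen for gaps on these same arrays, which both probes share, so these counts are no independent evidence.

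The log2 levels of miR-1904 were -4.16, -3.93 and -3.71 with saline and -3.62, -3.39 and -3.52 with metformin. They did not overlap, but unscaled intensity did, at 12.4, 18.3 and 24.7 against 20.5, 22.0 and 20.6. miR-3473g likewise lay apart only after scaling, at 0.02, -0.17 and -0.26 against 0.07, 0.23 and 0.21. Metformin arrays of both lay within or near the chow range, which ran from -3.52 to -3.20 for miR-1904 and from 0.11 to 0.39 for miR-3473g. Limma's adjusted p for metformin against saline was 0.207 and 0.307.

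miR-101c stood at -3.25, -3.27 and -3.57 with saline and -3.86, -3.72 and -3.80 with metformin (limma adjusted p = 0.158; 0.0448 with the 6 arrays alone, range over alternatives 0.0147 to 0.967). Its 19 bases lie whole within the 21 bases of miR-101a-3p, from base 2 to base 20, and how far its probe also reads that longer miRNA was not tested. The shift moves the seed by 1 base. miR-101a-3p had a difference of -0.26 with overlapping arrays.

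miR-27a-3p, which represses lipid and adipocyte regulators, stood at -1.69, -1.71 and -1.64 with saline and -2.13, -1.94 and -1.83 with metformin (limma adjusted p = 0.307). miR-185-5p, a regulator of cholesterol genes, stood at -2.87, -2.80 and -2.93 against -3.19, -3.18 and -3.03 (limma adjusted p = 0.374). Neither miRNA had overlapping arrays, and their differences were under 0.3 in size.

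For saline on the high fat diet against chow, 20 miRNAs (14%) passed the test, 6 higher (4.2%) and 14 lower (9.79%), and their metformin values are given beside without being set against the diet values, since both use the saline arrays. Of the 6 that the diet raised, miR-34a-5p and miR-185-5p are described above. The differences of metformin from saline for the others were -0.17 for miR-1839-5p, -0.13 for miR-342-3p, a lymphocyte miRNA, -0.11 for miR-199a-3p and -0.03 for miR-425-5p. Metformin arrays of miR-425-5p overlapped the saline arrays, at -3.43, -3.44 and -3.32 against -3.41, -3.25 and -3.45.

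Of the 14 lower on the diet, miR-202-3p passed for metformin against saline. The others besides miR-1904, miR-3473g and miR-5126 had differences of 0.38 for miR-149-3p, 0.24 for miR-3102-5p, 0.22 for miR-6538, 0.20 for miR-3077-5p, 0.17 for miR-8101, 0.14 for miR-3963, 0.10 for miR-7082-5p, 0.02 for miR-211-3p and for miR-3960, and -0.14 for miR-677-3p. Of these, miR-149-3p and miR-3077-5p were detected on 1 of the 3 saline arrays and miR-7082-5p on 2, while all 3 metformin arrays detected each of them. miR-677-3p stood at -3.79, -4.01 and -4.03 with saline and -4.04, -4.07 and -4.13 with metformin, below every chow array, and differed between metformin and chow by -0.63 (limma adjusted p = 0.00534). With miR-34a-5p it made up the 2 miRNAs (1.4%) that passed for metformin against chow.

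Cell type markers were counted against the same background of 143 miRNAs with a median difference of -0.06. No marker passed. The 5 of 6 hepatocyte markers that were tested ran from -0.08 to 0.14. miR-122-5p stood at 6.56, 6.60 and 6.43 with saline and 6.71, 6.57 and 6.74 with metformin, which overlap, with a difference of 0.14 (95% interval -0.06 to 0.34, limma adjusted p = 0.593). The endothelial miR-126a-3p had a difference of -0.14.

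All 3 tested stellate and mesenchymal markers were negative, beside 62.9% of all tested miRNAs, with a median of -0.19. miR-199b-5p stood at -4.02, -3.74 and -3.23 with saline and -3.94, -4.06 and -4.22 with metformin, a difference of -0.41 (SE 0.20) with overlapping arrays. Without saline array 3, its highest and the one with muscle miRNAs, the difference was -0.20. With normexp background correction and an offset of 50, which shrinks differences of dim probes, it was 0.0017. miR-199a-5p had -0.19 with metformin arrays at -4.01, -3.98 and -4.01 below saline arrays at -3.85, -3.82 and -3.77. The defining miR-214-3p, miR-143-3p and miR-145a-5p were detected on 0 of the 6 arrays. The 4 tested of 7 leukocyte markers were also all negative, beside the same 62.9%, with a median of -0.14. Among them were miR-146a-5p, which dampens NF-kB signalling, at -0.28 and the myeloid miR-223-3p at -0.15 (SE 0.11), while miR-142a-5p, miR-150-5p and miR-155-5p were detected on none of these arrays. The differences of miR-146a-5p, miR-223-3p and miR-342-3p turned positive in 3, 2 and 2 alternative processings. No biliary or muscle marker met the rule for testing.

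Of regulators of lipid and cholesterol metabolism, 10 of 15 were tested and 0 passed, with 8 negative, 2 positive and a median of -0.14. Among all tested miRNAs, 62.9% were negative. miR-33-5p, the intronic miRNA of Srebf2, was detected on 0 arrays. Of regulators of insulin and glucose handling, 9 of 13 were tested and 0 passed, with 5 negative and 4 positive. In that list, miR-103-3p, which lowers insulin sensitivity, had a difference of 0.05 (95% interval -0.15 to 0.25), and let-7a-5p stood at 2.52, 2.40 and 2.36 with saline and at 2.44, 2.27 and 2.58 with metformin.

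Regulators of AMPK and Sirt1 signalling, the pathway nearest to metformin's known action, had 4 of 9 members tested and 0 passing. All 4 were negative, beside 62.9% of all tested miRNAs, with a median of -0.38. Of them, miR-451a, miR-34a-5p and miR-199a-5p had metformin arrays below all saline arrays, as had 11.9% of all tested miRNAs. The difference of miR-199a-5p turned positive in 3 alternative processings. The list was written with earlier results of these data known, so its direction is no independent evidence. Of p53-responsive miRNAs, 3 of 6 were tested, and outside miR-34a-5p both tested members lay between -0.07 and 0.00.

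Of miRNAs tied to liver injury and fibrosis, 7 of 10 were tested, all 7 negative with a median of -0.11, and 0 passed. Among all tested miRNAs, 62.9% were negative. The sign turned in 5 alternative processings for miR-21a-5p and in 3 for miR-199a-5p. It turned in 2 each for miR-29c-3p and miR-199a-3p, and in 1 for miR-29b-3p. miR-21a-5p, which is raised in many injured tissues, stood at 3.58, 4.17 and 3.44 with saline and 3.48, 3.78 and 3.76 with metformin, a wide overlap. The miR-29 family, which represses collagen genes and is counted in that list too, had differences of -0.26 for miR-29b-3p, -0.18 for miR-29c-3p and -0.11 for the remaining member.

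**Figure D3:**
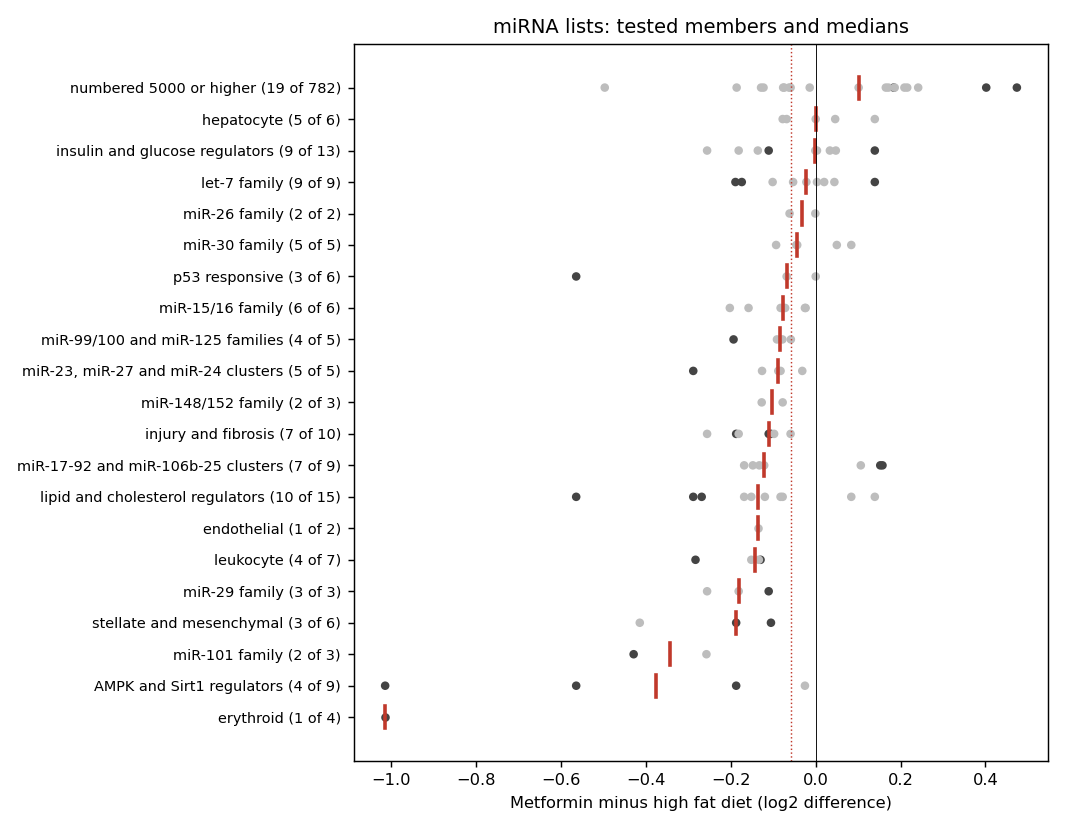
Metformin minus saline difference (log2, horizontal axis) of each tested member of 21 lists, with the numbers tested and on the array in brackets, red bars at list medians and a dotted line at the median of all 143 tested miRNAs, -0.06. Dark points are members whose arrays did not overlap between groups; list medians ran from -1.01, the single erythroid member, to 0.10 for miRNAs numbered 5000 or higher.

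Families that share a seed were compared member by member. The 9 let-7 miRNAs, with seed GAGGUAG, had a median of -0.02 and ran from -0.19 for let-7e-5p to 0.14 for let-7b-5p. Both ends of that range had arrays that did not overlap: let-7e-5p stood at -1.87, -1.82 and -1.85 with saline and -2.04, -2.11 and -1.96 with metformin, and let-7b-5p at 2.88, 2.90 and 2.84 against 2.96, 2.98 and 3.09. let-7i-5p, with the same seed, had -0.17 and lay below. The seed of miR-202-3p, GAGGUAU, shares 6 of its 7 bases with that seed and differs from it by U8G, counted from the 5′ end of the miRNA.

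All 6 miRNAs of the miR-15/16 family, with seed AGCAGCA, were negative, from -0.20 for miR-15b-5p to -0.02. Their median of -0.08 lies close to that of all tested miRNAs. The 3 of the miR-29 family, with seed AGCACCA, had a median of -0.18, and the 5 members of the miR-30 family ran from -0.09 to 0.08. miR-6965-5p and 1 other tested miRNA share the seed GAGGGAG, and both were positive. No family had a member that passed.

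Of 782 miRNAs numbered 5000 or higher, which entered the miRNA registry late, 19 were tested. Their median was 0.10, against -0.06 for the other tested miRNAs, with 10 positive and 9 negative. miR-7050-5p was the one among them that passed. miR-6965-5p (0.40) and miR-5126 (0.18) were the others with metformin arrays above all saline arrays, which makes 3 of 19 beside 8.39% of all tested miRNAs, and 0 of 19 lay below beside 11.9%.

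Bases G and C were more frequent in miRNAs with positive differences. Over the 125 miRNAs with a sequence, the share of G and C correlated with the difference at Pearson's r of 0.35 and Spearman's rho of 0.34, given as a description because all values come from the same 6 arrays. Without those numbered 5000 or higher, r was 0.34 and rho 0.28 (n = 107). The 30 miRNAs with 60% or more G and C had a median difference of 0.08 (0.06 over the 23 of them detected on all 6 arrays), the 75 with 40% to under 60% had -0.07, and the 20 with under 40% had -0.08. Over the 115 detected on all 6 arrays, r was 0.37 and rho 0.38. Among these, the median share of G and C was 57.1% in the 10 miRNAs whose metformin arrays lay above, and 50% in the 16 with a sequence whose arrays lay below. The level with saline had nearly no relation to the difference (r = 0.04), and length had little (r = -0.03). Saline minus chow, which shares the saline arrays, had r of -0.52 with the share of G and C. The part of the edge strips, which took unequal shares of the arrays, in this pattern was not tested.

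**Figure D4:**
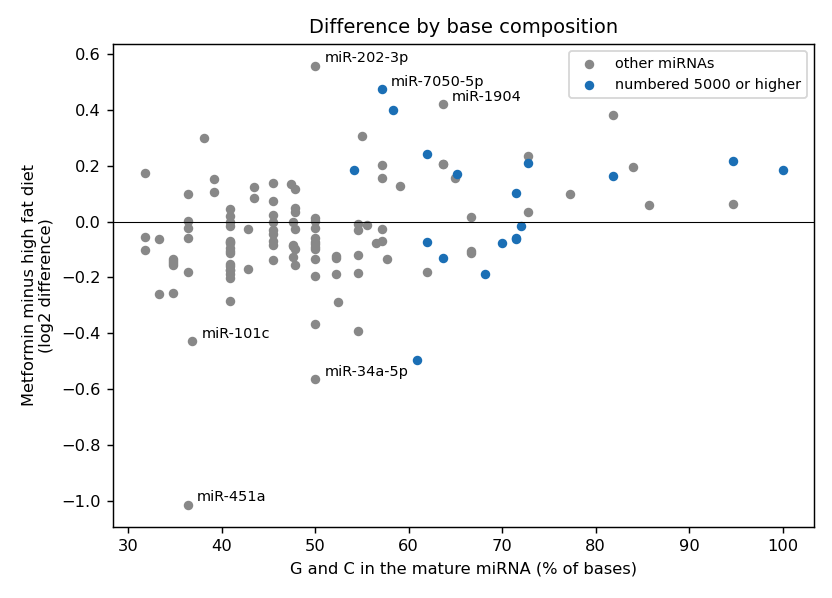
Metformin minus saline difference (log2, vertical axis) against the percent of G and C in the mature miRNA (horizontal axis) for the 125 tested miRNAs with a sequence, those numbered 5000 or higher in blue. Most points at 60% or more lie above 0, with a median of 0.08, while miR-451a and miR-34a-5p, the lowest labelled points, hold 36.4% and 50%.

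The direction of the 4 leading differences was the same in all 30 alternative processings tried, while their calls were not. miR-202-3p ranged from 0.27 to 0.83 and passed in 15, and miR-7050-5p from 0.22 to 0.75 and passed in 12. Both low ends came from normexp with an offset of 50. miR-34a-5p ranged from -0.74 to -0.21 and passed in 3, and miR-451a from -1.11 to -0.61 and passed in 5. With all spots used, edge strips included, neither miR-202-3p (0.64) nor miR-7050-5p (0.71) passed, and the median of all tested miRNAs was 0.16 in place of -0.06. Of the 137 miRNAs tested both ways, 63 changed sign between these readings. Scaling by the 75th percentile over all probes moved that median to 0.21, so the signs of differences under about 0.3 depend on the scaling.

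**Figure D5:**
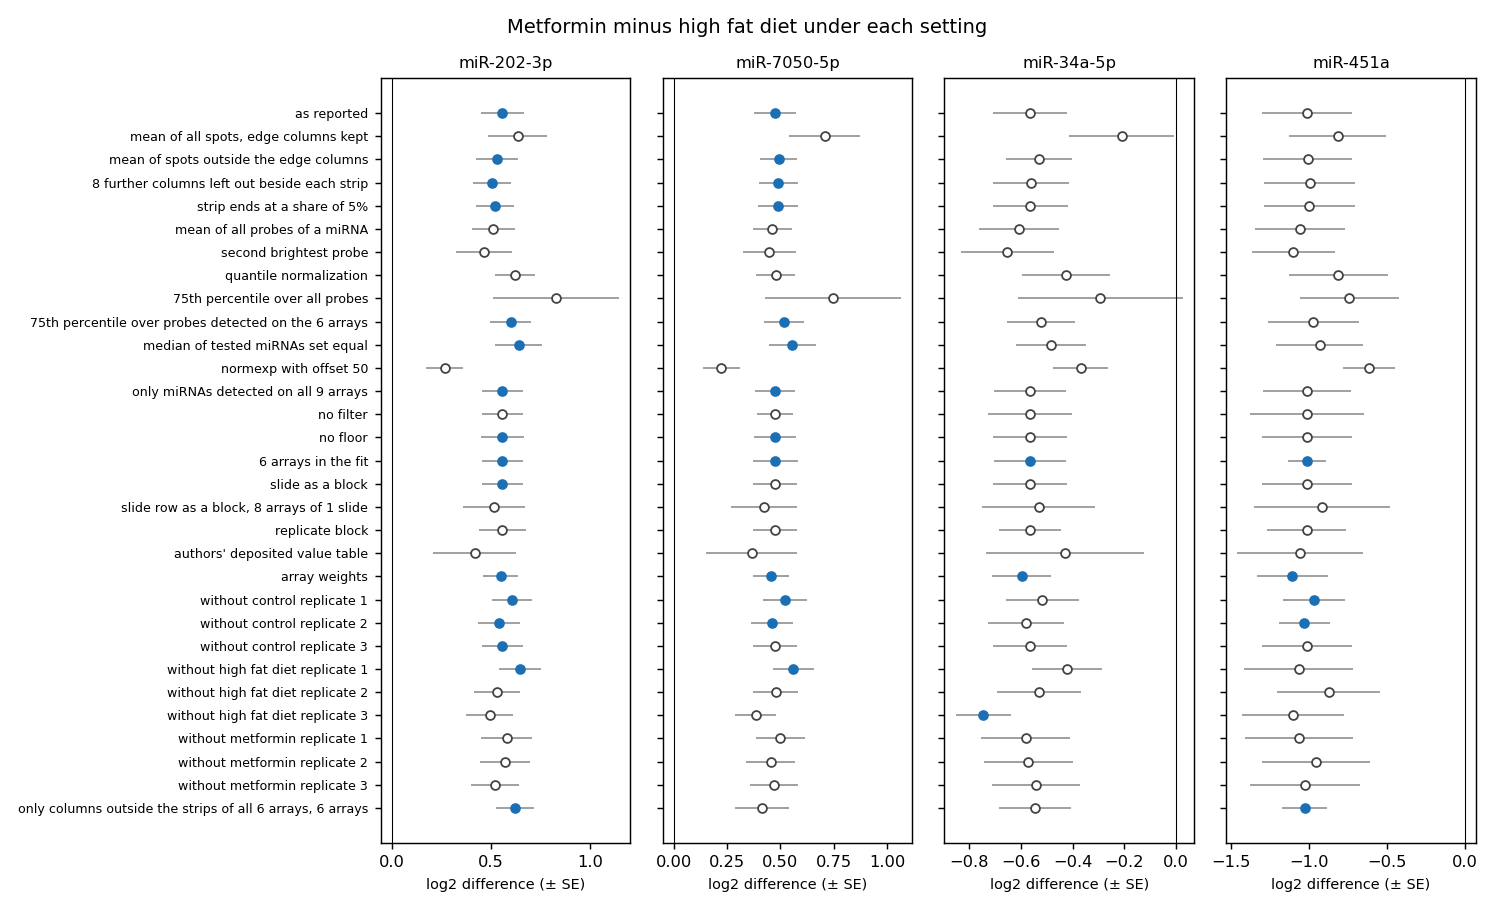
Metformin minus saline difference (log2, horizontal axis) with its SE for miR-202-3p, miR-7050-5p, miR-34a-5p and miR-451a as reported and under each of 30 alternatives (vertical axis). Filled points passed an adjusted p of 0.05 in that setting; no point changes side of 0, and filled points number 16 of 31 for miR-202-3p.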

How the data were processed

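Liver miRNA was measured on 9 one-colour Agilent arrays. Per the file headers, the deposited scanner files hold spot intensity after background subtraction from Agilent Feature Extraction 11.5.1.1, with no scaling; the submitters' processing notes name version 10.7. The authors' deposited log2 value table equals log2 of the total signal that the software gives a miRNA, shifted by 1 constant on each array (-2.35 to -0.71; 0 to 6 miRNAs per array depart by over 0.001). Its median per array ran from -5.67 to -4.03, and higher values in it stand for higher signal. The authors' way of centring it was unstated, and the metformin minus saline difference of 9 named miRNAs changed sign in it, as listed below.

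Edge columns were dropped, 4 at a time from the outside in, as long as 10% or more of the spots of bright probes (80th percentile of spots above 100) read under 50% of that percentile. A probe was the median of the spots left to it, those marked as non-uniform removed; 425 of 4415 probes were dropped because some array left them fewer than 3 spots. It was detected where over 0.5 of its spots lay well above background. Each array was scaled to its 75th percentile, taken over 187 probes with detection on all 9 arrays, then floored at 0.0406 and put on the log2 scale. The brightest probe stood for a miRNA, and testing required detection on 3 of 3 arrays in some group (132 of 143 on all 6 arrays compared, 9 on all metformin but not all saline arrays). No level of 1 miRNA was set against another's. Precision is limited by the number of arrays; 0 spots were saturated.

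limma 3.58.1 in R 4.3.3 was fitted as 3 group means with a shared spread, two-sided, on all 9 arrays, and was tested on simulated data. Named miRNAs were those that passed for metformin or diet, the 10 highest and 10 lowest detected on all 6 arrays without overlap, and fixed markers with examples of each list. Members and lists were chosen with earlier results of these data known. Same-numbered arrays of both groups did not deviate together (correlations -0.02, 0.0054 and -0.18), so numbers were not used as pairs. The files lack the mean spot signal, so normexp used the median signal and median background. An offset of 50 was added, which shrinks log2 differences of dim probes. Coordinates and sequences are RefSeq's on GRCm38.p6.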

Additional observations from a re-analysis of the deposited data

How the results depend on the processing

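The count of 2 passing miRNAs remained 2 with the mean of spots outside the strips, with 8 further columns left out, with strips ended at a share of 5%, with scaling over probes detected on the 6 arrays, with medians set equal, with miRNAs detected on all 9 arrays and with no floor, and in each of these it was miR-202-3p and miR-7050-5p. It was 0 when every spot was used (15 below an unadjusted p of 0.05 by limma), the mean of all probes (16), the second brightest probe (13), quantile normalization (19), the 75th percentile over all probes (7), normexp (11), no filter (15), the slide row as a block (10) and the authors' deposited value table (1). It was 1 with the slide as a block (miR-202-3p), 5 with the 6 arrays alone (adding miR-34a-5p, miR-451a and miR-101c) and 7 with array weights (adding also miR-185-5p and miR-1904). Only chow array 3 lies on another slide. The slide block therefore acts nearly as leaving that array out, and cannot test a slide effect between metformin and saline. Leaving out single arrays gave 0 to 3: 0 without saline array 2 (12 unadjusted) or any metformin array (8 to 18 unadjusted), 1 without saline array 3 (miR-34a-5p) or chow array 3 (miR-202-3p), 2 without saline array 1, and 3 without chow array 1 or 2 (adding miR-451a). With only the columns outside the strips of all 6 arrays, miR-202-3p and miR-451a passed. This alternative was chosen after seeing the data. It too was fitted on the 6 arrays alone, where 5 had passed without that limit on columns. The limma adjusted p of miR-7050-5p was 0.277 in it and 0.0287 without the limit. The causes were not tested.

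With the replicate number as a block the count was 0 (13 unadjusted), and miR-202-3p (0.56) and miR-7050-5p (0.47) both had an adjusted p of 0.0696 by limma, within ranges over alternatives that reach 0.967 for each; the deviations of same-numbered arrays gave no pairing.

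No sign turned for a miRNA that passed. Among those that did turn, the reported differences of miR-199b-5p (-0.41) and miR-31-5p (-0.39) were the largest in size. With all spots the turned differences were miR-27a-3p 0.18, miR-31-5p 0.25, let-7i-5p 0.047, miR-125b-5p 0.022, miR-146a-5p 0.24, miR-199a-5p 0.14, miR-29c-3p 0.024, miR-1839-5p 0.20, miR-342-3p 0.20, miR-15b-5p 0.11, miR-126a-3p 0.37, miR-223-3p 0.032, miR-21a-5p 0.25, miR-425-5p 0.17 and miR-211-3p -0.015. With the 75th percentile over all probes they were miR-185-5p 0.0034, let-7i-5p 0.098, miR-125b-5p 0.079, miR-29b-3p 0.016, miR-101a-3p 0.015, let-7e-5p 0.083, miR-199a-5p 0.085, miR-29c-3p 0.091, miR-1839-5p 0.098, miR-677-3p 0.14, miR-342-3p 0.14, miR-15b-5p 0.070, miR-126a-3p 0.14, miR-223-3p 0.12, miR-199a-3p 0.17, miR-21a-5p 0.21 and miR-425-5p 0.25. With normexp they were miR-199b-5p 0.0017, miR-146a-5p 0.034, miR-199a-5p 0.060, miR-1839-5p 0.081, miR-677-3p 0.083, miR-425-5p 0.077 and let-7a-5p -0.026. In the authors' deposited value table they were miR-31-5p 0.10, miR-146a-5p 1.17, miR-20a-5p -0.0047, miR-1839-5p 0.97, miR-677-3p 1.28, miR-8101 -0.010, miR-3960 -0.0033, miR-211-3p -0.25 and let-7a-5p -0.096.

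Other settings turned few signs. The second brightest probe turned miR-3960 (-0.0038), miR-211-3p (-0.055) and let-7a-5p (-0.048), and the mean of all probes miR-211-3p (-0.019) and let-7a-5p (-0.023). Further columns left out turned miR-211-3p (-0.027), quantile normalization miR-199a-3p (0.0071), scaling over the 6 arrays miR-425-5p (0.017), equal medians miR-21a-5p (0.023) and miR-425-5p (0.056), and array weights let-7a-5p (-0.022). The columns shared by all 6 arrays turned miR-425-5p (0.0024), miR-211-3p (-0.056) and let-7a-5p (-0.0032). Without single arrays, let-7a-5p ran from -0.071 to 0.082, miR-211-3p from -0.10 to 0.084, miR-21a-5p from -0.20 to 0.16, miR-3960 from -0.035 to 0.064 and miR-425-5p from -0.065 to 0.033. Probes near background limit the dimmest miRNAs, miR-7050-5p among them.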

Other observations

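The muscle miRNAs were set beside chow livers as well. Chow array 3 read 29.4 for miR-133b-3p, 16.5 for miR-133a-3p and 17.5 for miR-1a-3p, and chow arrays 1 and 2 read at most 6.87 for any of these. On saline array 3 the intensities of 499.5, 300.0 and 239 exceeded every other array of the series. The 3 of them together were the untested miRNAs that passed an intensity of 50 on any of the 9 arrays.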
